A study of Mus musculus with 94 samples.

Results

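The genes described here are 45 mouse genes of mitosis: the kinases and cyclins that start it, the spindle and its motors, the kinetochore, the spindle checkpoint, the chromosomal passenger complex, the machinery of cytokinesis and condensin I. They were taken from a list of symbols, matched by identifier, and all 45 were among the 46078 genes of the count table. The cells were bone marrow basophils of female C57BL/6 mice, unmanipulated as far as the labels say, with 3 mice in the design. Every cell was live, lineage-negative, Sca1-negative and FcεRI-positive, and the groups were gates on CD34, with 47 CD34-positive and 47 CD34-negative cells. Each cell was one library of polyadenylated RNA. No label ties a cell to a mouse, so each gate counts as 1 sample, cells are not replicates, and there is no test and no replicate check of any difference below.

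Mitosis separates the copied chromosomes. Cdk1 bound to cyclin A or B starts it, condensin and topoisomerase II shape the chromosomes, the Ndc80 complex ties kinetochores to microtubules, and the checkpoint holds Cdc20 back until every kinetochore is attached. The anaphase-promoting complex with Cdc20 then marks securin and cyclin B for destruction, separase cuts cohesin, and the central spindle directs the cleavage of the cell. Transcripts of most of these genes build up in G2 and M phase, in part through a promoter element called CHR (cell cycle genes homology region) that DREAM and MuvB complexes bind, often near CCAAT boxes bound by NF-Y. Mature basophils are regarded as non-dividing cells, and their marrow precursors still divide.

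RefSeq promoter windows on GRCm38.p6 (mm10), each 300 bases long from 250 before to 50 after a start that RefSeq lists, were matched for 38 of the 45 genes, giving 41 windows. CHR was searched as TTTGAA or TTCGAA on both strands and the CCAAT box as CCAAT on both strands, and matches of the motifs can share a base at their ends. CHR was in 33 of the 41 windows (80.5%), against 19.2% of all 32851 windows in the table. Within 60 bases before to 50 after the start, the shares were 70.7% and 5.90%. CCAAT was in 73.2% of the 41 windows against 37.4% of all, and both motifs were in 68.3% against 7.52%. CCAAT was also in 64.5% of 31 windows of DNA replication genes and in 60.4% of 91 windows of other mitosis genes. The 8 genes with windows but no CHR were Birc5, Ccnb1, Cenpe, Mad2l1, Ncaph, Nuf2, Nusap1 and Pttg1. A RefSeq start need not be that of the GENCODE gene whose coordinates are used here: 6 of the 41 windows, 1 each of Bub3, Cdca8, Kif2c, Kif4, Mad2l1 and Pttg1, do not hold the GENCODE gene start. The windows of Mad2l1 and Pttg1 therefore say nothing about the sequence at that start. Of the 35 windows that hold it, 29 had CHR (82.9%), against 16.9% of 15854 such windows over all genes, a comparison chosen after the data were seen. A match is a run of letters and does not show that a factor binds there, and no match says only that these letters are not in the window.

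The shares differed among groups of mitosis genes. CHR was in 63.6% of 22 windows of further spindle and cytokinesis genes, in 26.7% of 15 windows of the inner centromere network and in 21.1% of 19 windows of the anaphase-promoting complex. Windows of DNA replication genes held it in 19.4% of 31, close to the share of all windows. The shares were 75% of 4 windows for condensin II, 55.6% of 9 for the Mis12, Ska and RZZ kinetochore parts, 50% of 6 each for the Cdk1 regulators and the transcription factors, and 30% of 10 for cohesin. With few windows per list, these shares are descriptions only.

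**Figure D1:**
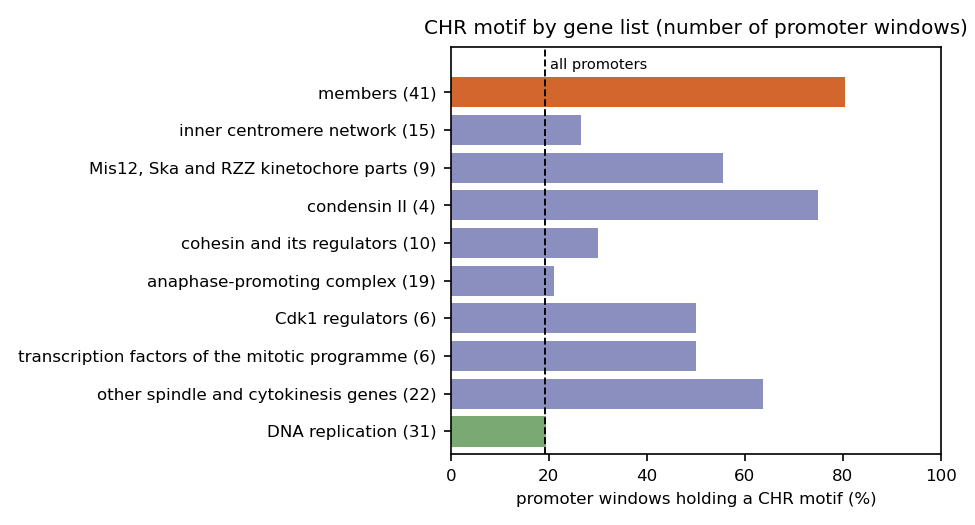
Percentage of RefSeq promoter windows of 300 bases that hold a CHR motif (horizontal axis), by gene list, with the number of windows in brackets. The orange bar is the 45 mitosis genes described here (80.5% of 41 windows), green is DNA replication, blue bars are other mitosis lists, and the dashed line is all windows (19.2%).

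Stretches of 150 bases are shown for 5 genes, from 120 before to 30 after the RefSeq start and 5′ to 3′ on the gene's strand, chosen to cover the mitotic kinase, a cyclin, the anaphase activator, a spindle motor and the chromosome topoisomerase. Their windows all hold the GENCODE gene start and both motifs. Genes without CHR, such as the cyclin gene Ccnb1, are not shown. Capitals mark CHR (TTTGAA, its reverse complement TTCAAA, or TTCGAA) and CCAAT (or its reverse complement ATTGG).
Cdk1, chr10:69352883-69353032, minus strand: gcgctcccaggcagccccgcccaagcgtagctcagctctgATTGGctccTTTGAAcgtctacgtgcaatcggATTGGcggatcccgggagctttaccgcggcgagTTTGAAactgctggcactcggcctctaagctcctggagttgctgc
Ccnb2, chr9:70421525-70421674, minus strand: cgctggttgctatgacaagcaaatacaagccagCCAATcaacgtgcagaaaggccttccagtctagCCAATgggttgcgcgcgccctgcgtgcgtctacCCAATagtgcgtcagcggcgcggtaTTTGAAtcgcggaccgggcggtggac
Cdc20, chr4:118437314-118437463, minus strand: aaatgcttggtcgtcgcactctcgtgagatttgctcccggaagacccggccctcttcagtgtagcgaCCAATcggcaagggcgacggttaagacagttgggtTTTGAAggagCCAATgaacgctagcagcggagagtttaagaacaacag
Kif11, chr19:37376262-37376411, plus strand: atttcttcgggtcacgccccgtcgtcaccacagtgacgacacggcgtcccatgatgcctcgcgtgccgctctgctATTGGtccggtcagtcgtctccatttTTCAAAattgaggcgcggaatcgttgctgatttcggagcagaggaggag
Top2a, chr11:99024160-99024309, minus strand: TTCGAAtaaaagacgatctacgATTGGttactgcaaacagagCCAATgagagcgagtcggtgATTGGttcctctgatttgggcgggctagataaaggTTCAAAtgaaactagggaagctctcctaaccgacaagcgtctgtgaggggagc
The Cdk1 stretch holds 2 CHR and 2 CCAAT matches, and that of Ccnb2 holds 1 CHR close to the start and 3 CCAAT boxes. Cdc20 has 1 CHR and 2 CCAAT boxes, Kif11 has 1 of each, and Top2a has 2 CHR and 3 CCAAT matches.

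Depth per cell overlapped widely between the gates, and the number of genes found differed. After a filter on depth and quality, 92 cells were kept, 46 per gate, with 262944 to 938322 gene reads per CD34-negative cell (median 737059) and 374011 to 1154738 per CD34-positive cell (median 633178). To compare cells at one depth, 200000 gene reads were drawn from each, and a gene was called found with at least 1 read. Genes found numbered 4526 in the median CD34-negative cell and 6519 in the median CD34-positive cell, and the median number of gene reads per read of ERCC spike-in RNA was 6.87 and 14.4. Cd34 itself was at 0.209 CPM (counts per 1000000 gene reads, over a gate's summed reads) in the CD34-negative and 59.9 CPM in the CD34-positive gate. Reads of it were found in 2 and 26 cells, and with all reads 18 of the 46 CD34-positive cells had none. These include cells 4, 11, 12, 13, 28 and 46, which are 6 of the 9 CD34-positive cells with 23 or more mitosis genes, so the Cd34 transcript does not check the gate of each cell. A median of 8 of the 8 basophil genes was found per cell in both gates, and the genes of the list differed in direction. The protease genes Mcpt8, Prss34 and Cpa3 had log2 folds (CD34-positive over CD34-negative) of 1.40, 1.37 and 1.33. Ms4a2 and Fcer1a, chains of the IgE receptor, were at 0.43 and 0.08 (Fcer1a at -0.19 with scran size factors), and Cd200r3 was at -1.47. Gata2 and Il3ra were at -0.59 and -0.47, but at 0.38 and 0.49 with ERCC scaling. CD34-negative cell 10 stood apart, with a basophil sum of 236 CPM against a gate median of 22066 CPM. In the CD34-positive gate, cells 1, 41, 6, 35 and 40 had the lowest sums, of 5205, 5518, 8607, 10175 and 10800 CPM. The median of that gate was 90271 CPM.

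Progenitor genes (Cd34, Kit, Mpo, Ctsg, Elane and Prtn3) moved with the gates. They summed to 480 CPM in the CD34-negative and 7235 CPM in the CD34-positive gate. All 6 had a log2 fold (CD34-positive over CD34-negative) of 1 or more, against 21.7% of 12460 genes past the low filter. Their median was 4.38. Cd34 encodes the marker on which the gates were set, so its own fold is no independent result. Per cell the sum ran from 0 to 4327 CPM, the latter in CD34-negative cell 25, and from 137 to 22238 CPM in CD34-positive cells. Its rho with the number of mitosis genes found was 0.47 in CD34-negative and 0.11 in CD34-positive cells (r 0.83 and 0.02). The CD34-negative values include cells 25 and 36, which had the most mitosis genes of their gate.

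Markers of other cell types were uneven. Mast cell and neutrophil genes had low sums, of 0.0299 and 0.0598 CPM in the CD34-negative gate and 7.33 and 0.799 CPM in the CD34-positive gate, although 1 CD34-positive cell reached 285 CPM of mast cell genes. The 6 erythroid genes summed to 0.777 and 36.6 CPM, the second of which is above the 34.3 CPM of the mitosis gene Plk1 in that gate. Klf1, an erythroid transcription factor gene, was found in 3 and 12 cells, while the globin gene Hba-a1 and Car1 had 0 reads in both gates. The erythroid sum ran from 0 to 31.2 CPM over CD34-negative and from 0 to 359 CPM over CD34-positive cells, and its rho with the number of mitosis genes found was -0.13 and 0.16 (r -0.05 and 0.15, 46 cells each). The other marker lists had higher sums, most of them largely from 1 gene. B cell genes summed to 64.0 and 49.0 CPM (Cd79b 49.0 and 45.6), and eosinophil genes to 76.6 and 112 CPM (Siglecf 76.5 and 60.3, Prg2 0 and 48.0, Epx 0 and 0.200). Monocyte and dendritic cell genes summed to 511 and 59.1 CPM (Ccr2 493 and 40.5), and megakaryocyte genes to 1444 and 933 CPM (Itga2b 1444 and 930, Pf4 at 0 reads). Per cell the monocyte and dendritic cell sum ran from 0 to 2388 CPM in the CD34-negative and from 0 to 813 CPM in the CD34-positive gate. Its highest cell was CD34-negative cell 10, the cell low in basophil genes, with Csf1r at 966 and Itgax at 445 CPM. That cell had 9 mitosis genes, and without it the median log2 fold of the mitosis genes was 1.90. The part of any of these lists, progenitor genes included, in the results was not tested.

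Cells 25 and 36 of the CD34-negative gate stood apart, with 44 and 41 of the 45 mitosis genes found, while the other 44 cells of that gate had 0 to 9. They held a median of 81.0% of a mitosis gene's CD34-negative reads, over 90% for 21 genes and over 50% for 35. Fold changes of the 45 genes are therefore given with and without these cells.

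Most CD34-negative cells had few mitosis genes and many CD34-positive cells had some. The number found per cell ran from 0 to 44 in the CD34-negative gate, with a median of 4 (95% order-statistic interval 3 to 5) and a mean of 5.89 ± 8.17 (SD over 46 cells). CD34-positive cells had 4 to 45, with a median of 11 (8 to 16) and a mean of 16.4 ± 13.1 (SD over 46 cells). The ranges overlap almost in full, and the medians differed by 7 genes. With all reads the medians were 6 and 14. As a share of all genes found in a cell, mitosis genes had a median of 0.0890% in CD34-negative and 0.169% in CD34-positive cells.

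The form of the distribution differed between the gates. Up to 4 genes were found in 27 CD34-negative cells and 1 CD34-positive cell, and 5 to 9 genes in 17 and 18 cells. The range from 10 to 22 genes held 18 CD34-positive cells (39.1%, exact Clopper-Pearson interval 25.1 to 54.6%) and 0 of 46 CD34-negative cells, for which the interval reaches 7.71%. A majority, 23 or more of 45, was found in 9 CD34-positive cells (19.6%, interval 9.36 to 33.9%) and in 2 CD34-negative cells (4.35%, interval 0.531 to 14.8%). These intervals cover counting of cells within a gate only, and the difference between the gates has no test. Of those cells, 8 and 2 had 35 or more. Both gates had an empty range, between 22 and 31 genes in CD34-positive and between 9 and 41 genes in CD34-negative cells.

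**Figure D2:**
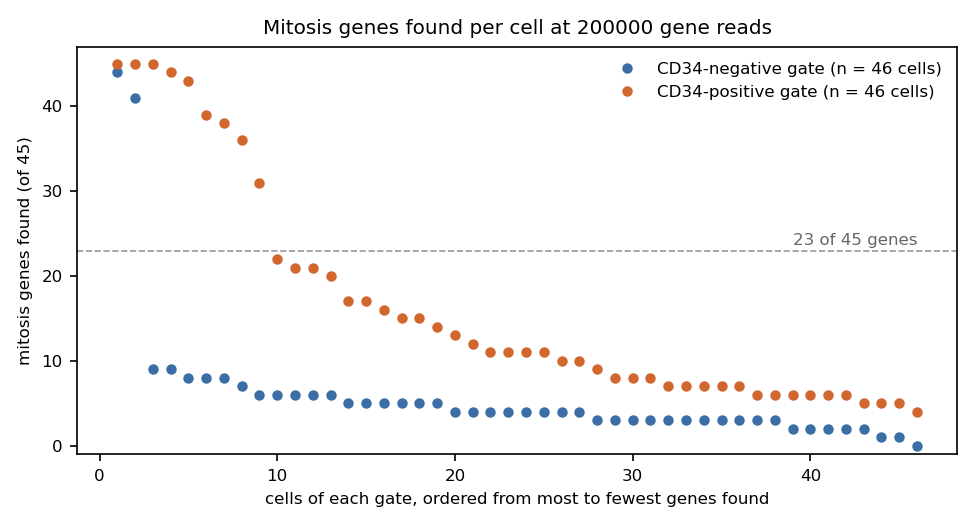
Number of the 45 mitosis genes found at 200000 gene reads (vertical axis) in each kept cell, ordered from most to fewest within a gate (horizontal axis), 46 cells per gate, 1 point per cell. Blue CD34-negative points drop from 41 to 9 after the second cell, while orange CD34-positive points run from 45 to 4 with a break from 31 to 22, and the dashed line is 23 genes.

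The reads were concentrated in a few cells. All 45 genes together made up 39049 CD34-negative and 118243 CD34-positive reads, or 1168 and 3937 CPM. Per cell, their sum ran from 0 CPM over a median of 391 to 18495 CPM in CD34-negative cell 25, and from 210 over 951 to 27023 CPM in CD34-positive cell 12. The 5 highest cells held 71.5% of the CD34-negative and 52.5% of the CD34-positive reads.

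**Figure D3:**
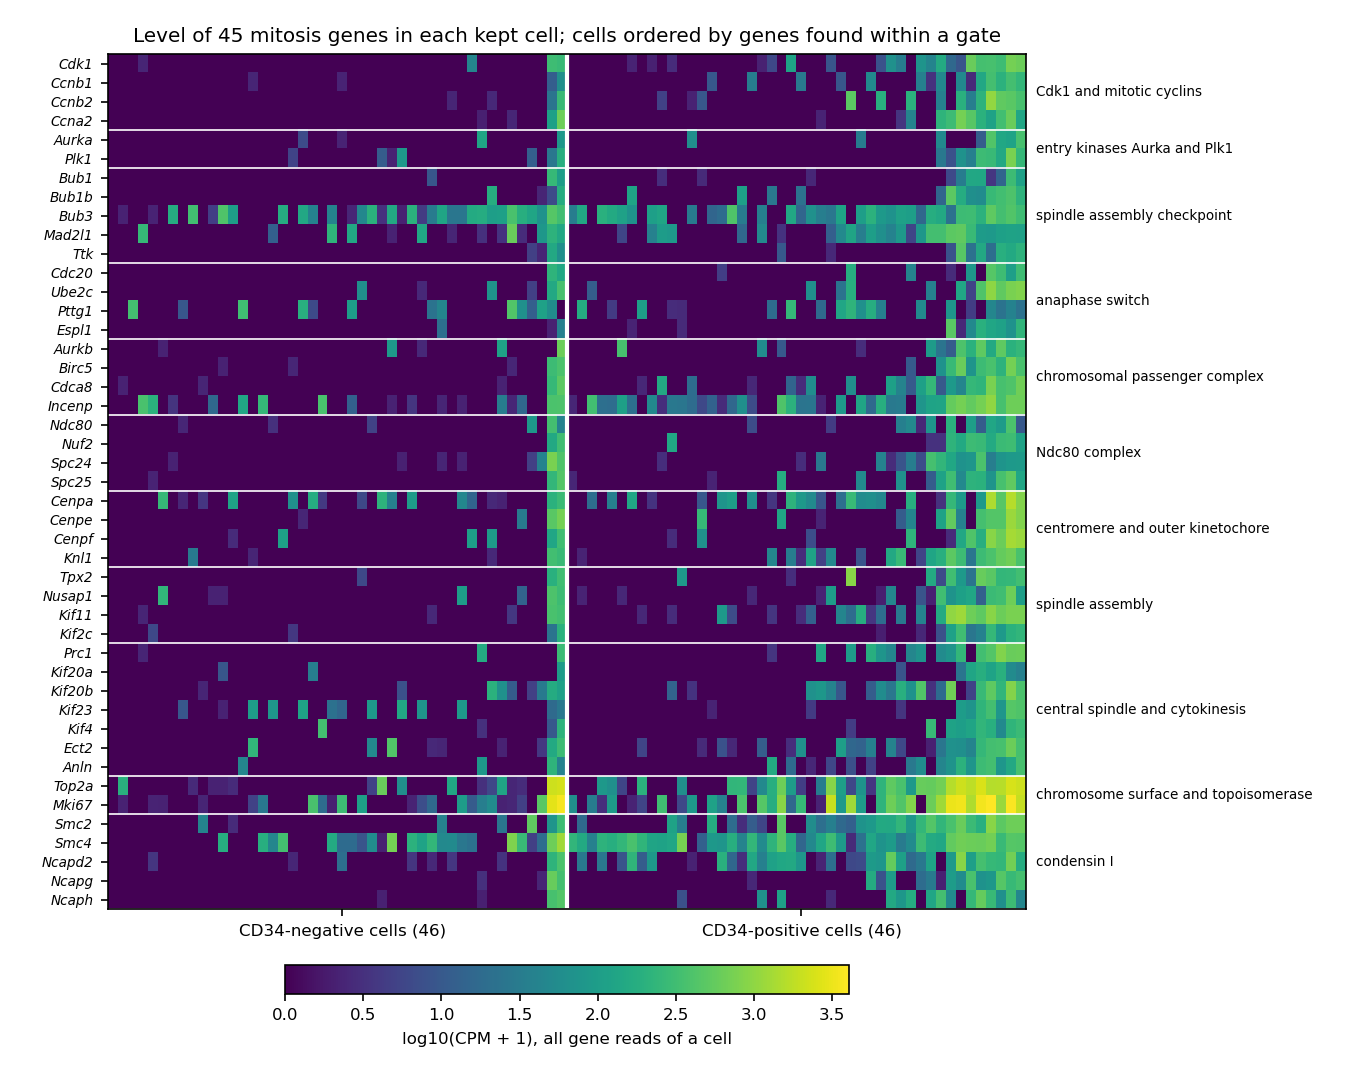
Level of each of the 45 mitosis genes (rows, grouped by role) in each kept cell (columns, 46 per gate, ordered by the number of genes found), as log10 of CPM plus 1 over all gene reads of the cell. The bright columns at the right of each gate are the cells with most genes found, 2 in the CD34-negative gate, and the rows of Bub3, Smc4, Top2a and Mki67 carry signal in many other cells.

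Summed over cells, nearly all of the 45 genes had a higher level on the CD34-positive side. The log2 fold sets the CD34-positive CPM over the CD34-negative CPM after 1 CPM is added to each as a pseudocount. Its median was 1.91 over the 45 genes and 0.19 over the 12460 genes that had a read in 10 or more kept cells. It was 1 or more for 35 of the 45 genes (77.8%), against 21.7% of all 12460 and 31 of 33 DNA replication genes, whose median was 2.14, and above 0 for 44 (97.8%), against 58.9%. The pseudocount understates the fold of low genes. The highest folds were those of Ccnb1, Espl1 and Ccnb2, and the lowest were those of Pttg1, Bub3 and Spc24. Without CD34-negative cells 25 and 36 the median was 4.14, and 42 of 45 genes were at 1 or more, against 23.5% of all genes. In that setting 12 genes had at most 3 reads in the other 44 CD34-negative cells, so their folds depend on the pseudocount. They were Cdc20 and Nuf2 with 0 reads, Spc25 with 1, Ccna2, Ccnb1, Ccnb2, Ncaph, Tpx2 and Ttk with 2, and Birc5, Cdca8 and Ncapg with 3. With the 12 genes set to 3 reads the median was 4.14 as well.

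The number of cells with a read differed less from the background than the summed level did. At equal depth, 44 of 45 genes were found in more CD34-positive than CD34-negative cells, but so were 81% of all 12460 genes. A lead of 10 cells or more was seen for 21 genes (46.7%), against 32.1% of all. The median lead was 9 cells for the mitosis genes and 6 for all genes. When both gates were scaled to ERCC reads, which keeps the difference in RNA per cell, the median fold was 2.81 for the mitosis genes and 1.04 for all genes, and 51.8% of all genes were at 1 or more.

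**Figure D4:**
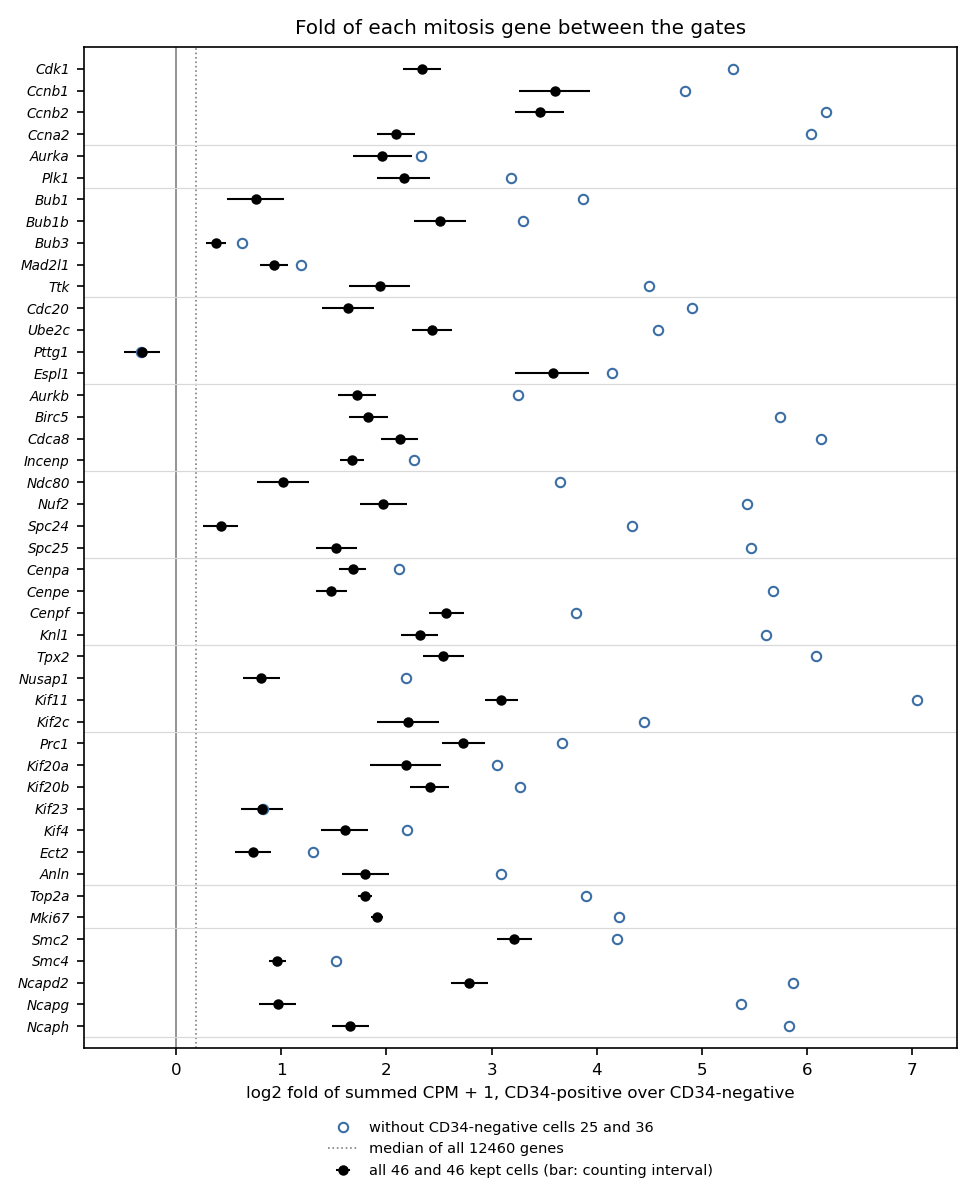
Log2 fold of each mitosis gene between the gates (horizontal axis), CD34-positive over CD34-negative, from reads summed over 46 and 46 kept cells, with black points and bars for the value and its 95% counting interval. Open circles leave out CD34-negative cells 25 and 36 (for Cdc20 and Nuf2, with 0 reads left, their place is set by the pseudocount) and mostly lie far to the right of the black points, Pttg1 is the one gene below 0, and the dotted line is the median of all genes (0.19).

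Cdk1 (ENSMUSG00000019942), the kinase that drives entry into mitosis, was at 0 CPM in the lowest and the median cell of both gates. It reached 302 CPM in CD34-negative cell 36 and 710 CPM in CD34-positive cell 12. It had 479 and 2299 reads in all, or 14.3 and 76.6 CPM, a log2 fold of 2.34 (counting interval 2.16 to 2.52), and reads of it were found in 3 CD34-negative and 17 CD34-positive cells. Every CD34-positive cell with a Cdk1 read had at least 10 of the 45 genes, Cdk1 included, while 1 of the 3 CD34-negative cells with a Cdk1 read had 6.

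Ccnb1 (ENSMUSG00000041431), cyclin B1, had the highest fold of the 45. The lowest and the median cell were again at 0 CPM in both gates, and the highest at 59.2 CPM in CD34-negative cell 25 and 339 CPM in CD34-positive cell 46. Its sums were 1.50 and 29.3 CPM, a log2 fold of 3.60 (3.26 to 3.94), and reads of it were found in 2 and 14 cells. Ccnb2 (ENSMUSG00000032218), cyclin B2, peaked in the same cells as Ccnb1, at 279 and 1040 CPM. It summed to 6.04 and 76.3 CPM, a log2 fold of 3.46, and reads of it were found in 4 and 13 cells. Ccna2, cyclin A2, which acts from S phase on, summed to 15.4 and 68.8 CPM (log2 fold 2.09), and 99.6% of its CD34-negative reads lay in cells 25 and 36. The B cyclins did not always occur together: of 46 CD34-positive cells, 7 had both Ccnb1 and Ccnb2, 7 had Ccnb1 alone and 6 had Ccnb2 alone. Leaving out cells 25 and 36, the log2 folds were 5.30 for Cdk1, 4.84 for Ccnb1, 6.18 for Ccnb2 and 6.04 for Ccna2. All 4 genes of the Cdk1 and cyclin group were found in 7 CD34-positive and 2 CD34-negative cells.

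Of the entry kinases, Plk1 (ENSMUSG00000030867) acts on centrosomes, kinetochores and cytokinesis. In the CD34-positive gate it was found in 9 cells, and each of these had at least 31 of the 45 genes, Plk1 included. In the CD34-negative gate it was found in 6 cells, with as few as 3 mitosis genes. Its cells ran from 0 over a median of 0 to 179 CPM in the CD34-negative and 764 CPM in the CD34-positive gate. The sums were 6.88 and 34.3 CPM, a log2 fold of 2.16. Aurka, the kinase of centrosome maturation, had a log2 fold of 1.96, and reads of it were found in 3 and 8 cells. The fold without cells 25 and 36 was 3.18 for Plk1 and 2.33 for Aurka. Of 8 CD34-positive cells with Aurka, 6 also had Tpx2, its spindle activator.

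The checkpoint genes were split. Bub3 (ENSMUSG00000066979), a WD40 protein of the checkpoint, was among the most widely found members in both gates, in 30 CD34-negative and 37 CD34-positive cells. Its cells ran from 0 over 34.7 to 449 CPM in the CD34-negative gate and from 0 over 77.6 to 522 CPM in the CD34-positive gate, so the gates overlapped widely. The sums were 92.2 and 120 CPM, a log2 fold of 0.38 (0.28 to 0.48). Mad2l1, which binds Cdc20 at unattached kinetochores, was found in 11 and 26 cells at a log2 fold of 0.93. Bub1, Bub1b and Ttk, the kinase and pseudokinase members, were found in 3, 3 and 4 CD34-negative cells and in 8, 13 and 10 CD34-positive cells, with log2 folds of 0.76, 2.51 and 1.93. The fold of Bub1 was 3.87 without cells 25 and 36, which held 98.3% of its CD34-negative reads. In that setting Bub3 was at 0.63, Mad2l1 at 1.19, Bub1b at 3.30 and Ttk at 4.49.

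Among the genes of the anaphase switch, Pttg1 (ENSMUSG00000020415), securin, was the 1 member with a fold below 0. Its cells ran from 0 over 0 to 428 CPM in CD34-negative cell 33 and to 249 CPM in CD34-positive cell 8. It had 38.2 and 30.3 CPM, a log2 fold of -0.33 (-0.50 to -0.16), although it was found in fewer CD34-negative cells, 11, than CD34-positive cells, 18. Scaled to ERCC reads its fold was 0.61, so its direction depends on the scaling. Cells 25 and 36 held 3.99% of its CD34-negative reads, unlike those of most members, and without these cells its fold was -0.34.

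Its target Espl1 (ENSMUSG00000058290), separase, lay at the other end. The highest CD34-negative cell had 35.8 CPM and the highest CD34-positive cell 482 CPM, with both medians at 0. The sums were 1.17 and 25.0 CPM, a log2 fold of 3.58 (3.22 to 3.93), and reads of it were found in 3 and 8 cells. Of the 18 CD34-positive cells with Pttg1, 12 had no Espl1 read at this depth. Ube2c (ENSMUSG00000001403), the ubiquitin-conjugating enzyme of the anaphase-promoting complex, reached 365 CPM in CD34-negative cell 25 and 983 CPM in CD34-positive cell 46, with medians of 0. It had 436 and 2244 reads, a log2 fold of 2.43, and reads of it were found in 5 and 11 cells. Cdc20, the activator that opens anaphase, had a log2 fold of 1.63, and reads of it were found in 2 and 8 cells, and 100% of its CD34-negative reads came from cells 25 and 36. Once these cells were left out, the log2 folds were 4.14 for Espl1 and 4.58 for Ube2c. Cdc20 then had 0 CD34-negative reads, and its CPM was at least 307-fold higher in the CD34-positive gate, against a floor of 3 reads over the 44 cells.

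In the chromosomal passenger complex, which corrects faulty attachments, the scaffold gene was more widely found than its partners. Incenp (ENSMUSG00000024660), the scaffold, was found in 12 and 37 cells, and its cells ran from 0 over 0 to 396 CPM in the CD34-negative gate and from 0 over 25.9 to 1031 CPM in the CD34-positive gate. Its sums were 48.2 and 156 CPM, a log2 fold of 1.67. Aurkb, the kinase, Birc5, survivin, and Cdca8, borealin, were found in 2 or 3 CD34-negative cells each, and in 12, 10 and 20 CD34-positive cells, with log2 folds of 1.72, 1.83 and 2.13. Without cells 25 and 36 the fold was 2.27 for Incenp, 3.25 for Aurkb, 5.74 for Birc5 and 6.14 for Cdca8. All 4 were found together in 8 CD34-positive cells and 1 CD34-negative cell.

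The Ndc80 complex, which grips microtubules, had reads of high level in cells 25 and 36. Spc24 (ENSMUSG00000074476) had 70.1% of its CD34-negative reads in cell 36, at 771 CPM, above the highest CD34-positive cell at 390 CPM, and both medians were 0. It summed to 29.5 and 39.9 CPM, a log2 fold of 0.43 (0.26 to 0.59), but reads of it were found in 7 and 15 cells, and without cells 25 and 36 the fold was 4.33. Ndc80, Nuf2 and Spc25 had log2 folds of 1.02, 1.97 and 1.52, and were found in 13, 10 and 14 CD34-positive cells. Without cells 25 and 36 the log2 folds of Ndc80 and Spc25 were 3.65 and 5.47, and Nuf2, with 0 reads left, was at least 448-fold higher in CPM against the same floor of 3 reads. All 4 subunits were found in 2 and 8 cells.

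At the centromere and outer kinetochore, Cenpa (ENSMUSG00000029177), the histone H3 variant that marks centromeres, was found in 14 CD34-negative and 27 CD34-positive cells. Its cells ran from 0 over 0 to 285 CPM and from 0 over 8.14 to 1599 CPM, the latter in cell 12. The sums were 35.7 and 117 CPM, a log2 fold of 1.68. Cenpe, a kinetochore motor, Cenpf, a large coiled-coil protein, and Knl1, the checkpoint platform, had log2 folds of 1.48, 2.57 and 2.31, and were found in 12, 10 and 19 CD34-positive cells against 3, 6 and 4 CD34-negative cells. With cells 25 and 36 left out, Cenpa was at 2.12, Cenpe at 5.67, Cenpf at 3.81 and Knl1 at 5.61.

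Kif11 (ENSMUSG00000012443), the motor that pushes spindle poles apart, had a log2 fold of 7.05 once cells 25 and 36 were left out, a value that depends on the pseudocount, since its CD34-negative level was then 0.125 CPM. With those cells, its CD34-negative cells ran from 0 over 0 to 376 CPM and its CD34-positive cells from 0 over 0.750 to 1184 CPM. The sums were 16.5 and 148 CPM, a log2 fold of 3.09 (2.93 to 3.25), and reads of it were found in 3 and 20 cells. Tpx2 and Kif2c, a spindle assembly factor and a microtubule depolymerase, had log2 folds of 2.54 and 2.20, and Nusap1, a microtubule bundler, 0.81. These 3 were at 6.08, 4.45 and 2.18 without cells 25 and 36.

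The central spindle group held the one gene found in fewer CD34-positive than CD34-negative cells. Kif23, a centralspindlin motor, was found in 12 CD34-negative and 7 CD34-positive cells. Its highest cells had 144 and 457 CPM, its sums were 18.1 and 32.5 CPM, and its log2 fold was 0.82. In the CD34-positive gate each of its 7 cells had at least 38 of the 45 genes, Kif23 included. In the CD34-negative gate its cells had a median of 4 such genes, and cells 25 and 36 held 5.30% of its reads, so most of its reads there came from cells with few other mitosis genes. Kif20b (ENSMUSG00000024795), a motor of late cytokinesis and the group's gene with most reads, was found in 8 and 20 cells. Its cells ran from 0 over 0 to 202 CPM and from 0 over 0 to 873 CPM, and it summed to 13.2 and 74.4 CPM, a log2 fold of 2.41. Prc1, the bundler of antiparallel microtubules, and the motors Kif20a and Kif4 had log2 folds of 2.73, 2.19 and 1.60. Ect2, the activator of RhoA at the cleavage site, and Anln, anillin, had 0.73 and 1.80. Leaving out cells 25 and 36 gave 0.83 for Kif23, 3.27 for Kif20b, 3.67 for Prc1, 3.05 for Kif20a, 2.19 for Kif4, 1.30 for Ect2 and 3.09 for Anln. Ect2 was found in 20 CD34-positive cells, of which 7 had Kif23.

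Mki67 and Top2a, a coat protein of mitotic chromosomes and the topoisomerase that untangles them, had the most reads of the 45 genes. Mki67 (ENSMUSG00000031004) ran from 0 over 1.14 to 3636 CPM in CD34-negative cells and from 0 over 107 to 4047 CPM in CD34-positive cells. It summed to 182 and 685 CPM, a log2 fold of 1.91 (1.85 to 1.96), and reads of it were found in 17 and 32 cells. Top2a summed to 133 and 463 CPM, a log2 fold of 1.80, and reads of it were found in 9 and 33 cells. Mki67 was at 4.21 and Top2a at 3.90 without cells 25 and 36. Both were found together in 26 CD34-positive and 3 CD34-negative cells. CD34-positive cells with a Mki67 read had as few as 4 members, and those with a Plk1 read at least 31. Mki67 was at 685 and Plk1 at 34.3 CPM in that gate, and a gene with more reads is found more easily. The part of level in this difference was not tested. In the CD34-negative gate, Plk1 was also found in cells with few members.

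Of the 5 condensin I genes, a median of 1 was found per CD34-negative cell and of 3 per CD34-positive cell. Smc4 (ENSMUSG00000034349), an ATPase subunit shared with condensin II, was found in 23 CD34-negative and 44 CD34-positive cells. Its cells ran from 0 over 2.48 to 1244 CPM and from 0 over 157 to 743 CPM, and it summed to 116 and 227 CPM, a log2 fold of 0.96. Smc2, its partner ATPase, was far less often found in CD34-negative cells, 6 of 46, against 30 CD34-positive cells, and summed to 14.5 and 143 CPM, a log2 fold of 3.21. Of the 23 CD34-negative cells with Smc4, 19 had no Smc2 read, and of the 44 CD34-positive cells, 15 had none. Ncapd2, a HEAT-repeat subunit, was found in 6 and 33 cells at a log2 fold of 2.79. Ncapg and Ncaph, the other HEAT-repeat subunit and the kleisin, were found in 3 CD34-negative cells each and in 13 and 15 CD34-positive cells, at 0.97 and 1.66. Without cells 25 and 36, Smc4 was at 1.52, Smc2 at 4.19, Ncapd2 at 5.86, Ncapg at 5.37 and Ncaph at 5.82.

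Compared per kilobase of exon in the CD34-positive gate, Mki67 was highest at 68.1 CPM per kb, followed by Top2a at 51.3, Ccnb2 at 49.8 and Smc4 at 43.5. Oligo-dT priming and length bias enter such an order. Exons of 6 members overlap those of another gene over more than 10% of their length: Ccna2, Kif20a, Kif4, Ncapg, Prc1 and Ube2c, the last at 22.8% and Kif20a at 29.3%. The strand setting of the counting is not given in the sources used here, so reads of those stretches cannot be assigned with certainty.

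The other genes of mitosis, 95 in 8 lists, had a median log2 fold of 1.46, with none at -1 or less, against 10.1% of all 12460 genes. The counts at 1 or more below stand against 21.7% of all 12460 genes. The regulators of Cdk1 had 8 of 9 genes at 1 or more and a median of 2.40, led by the phosphatase gene Cdc25a at 4.45 and with Cks2 lowest at 0.73. Among 22 further spindle and cytokinesis genes, 19 were at 1 or more, with Kif14 highest at 3.52 and Numa1, which also has roles in interphase nuclei, lowest at -0.51 (0.45 with ERCC scaling). Of 12 genes of the Mis12, Ska and RZZ kinetochore parts, 8 were at 1 or more. Nsl1, of the Mis12 complex, was highest at 4.44, with 21.3 CPM and 13 cells against 0.0299 CPM and 0 cells, and Zw10, which also acts in vesicle traffic, was lowest at -0.37 (0.57 with ERCC scaling). The inner centromere network had 8 of 13 at 1 or more and a median of 1.72.

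The remaining lists had lower medians over all kept cells, among them 1.38 for condensin II and 0.84 for the transcription factors. The anaphase-promoting complex had 4 of 17 genes at 1 or more, near the 21.7% of all genes, and a median of 0.58 (0.34 with scran size factors), from Fzr1, its activator in G1, at -0.74 (0.22 with ERCC scaling) to Cdc27 at 1.72. Cohesin and its regulators had 5 of 12 and a median of 0.56 (0.32 with scran size factors), from Stag2 at -0.97 (-0.01 with ERCC scaling) to Cdca5, sororin, at 3.21. Condensin II had 2 of 3, with Ncaph2 at 0.08 and Ncapd3 at 1.83. Of 7 transcription factors and MuvB subunits of the mitotic programme, 3 were at 1 or more, against the same 21.7% of all genes, with Lin9 at 2.50 and Rbbp4 at 0.27. Without CD34-negative cells 25 and 36, the list medians were 4.11 for the further spindle and cytokinesis genes, 3.54 for the Mis12, Ska and RZZ parts, 2.91 for the inner centromere network and 2.55 for the Cdk1 regulators. In that setting condensin II was at 2.38, the transcription factor list at 1.84, the anaphase-promoting complex at 0.89 and cohesin at 0.69.

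Mitosis genes and DNA replication genes were compared cell by cell. The 34 replication genes had a median of 4 found per CD34-negative and 19.5 per CD34-positive cell. Across cells the numbers of mitosis and replication genes found had Pearson's r of 0.77 and Spearman's rho of 0.52 in 46 CD34-negative cells, and r of 0.44 and rho of 0.61 in 46 CD34-positive cells. These are descriptions over cells of one gate, which were sorted into one plate. Without cells 25 and 36 rho was 0.45 in the CD34-negative gate.

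The order of cells by mitosis genes and by replication genes differed in the CD34-positive gate. CD34-positive cells 12 and 46 had 45 and 44 mitosis genes but 14 and 13 replication genes, below the gate's median. Cells 28, 13 and 4 had 39, 38 and 36 mitosis genes with 32, 29 and 30 replication genes. In the opposite corner, cells 26 and 10 had 33 and 32 replication genes with 20 and 22 mitosis genes. In the CD34-negative gate, cells 25 and 36, with most mitosis genes, were also among the highest for replication genes, with 24 and 30. Cells 28 and 32 of that gate had 24 and 20, with 6 and 8 mitosis genes.

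**Figure D5:**
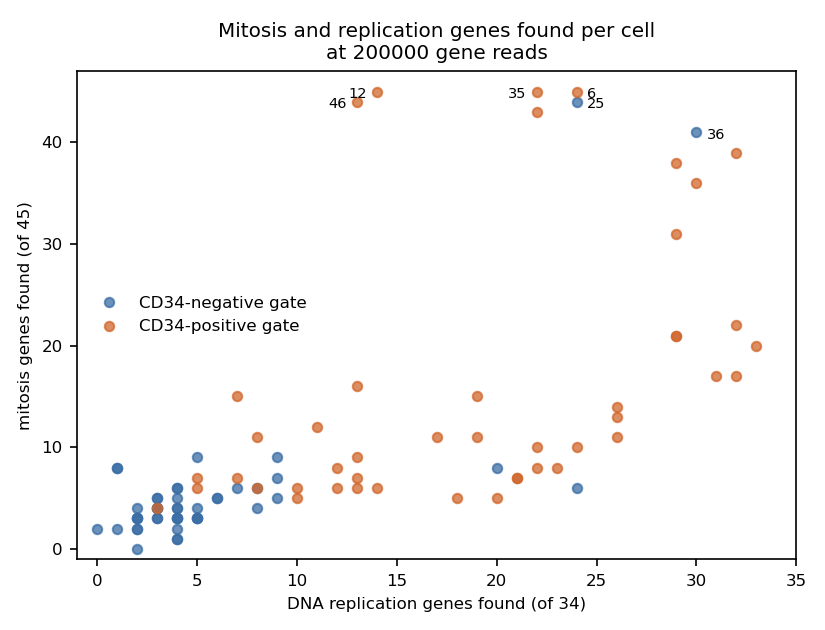
Mitosis genes found (vertical axis, of 45) against DNA replication genes found (horizontal axis, of 34) at 200000 gene reads, 1 point per kept cell, 46 per gate, with some cells numbered. CD34-positive cells 12 and 46 sit at upper left with 14 and 13 replication genes, and cells with 20 to 33 replication genes span 5 to 45 mitosis genes.

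The cells high in mitosis genes differed in basophil and progenitor genes. CD34-negative cells 25 and 36 had Prss34, a basophil protease gene, at 92634 and 88513 CPM, ranks 1 and 3 of their gate, and Mpo, a primary granule gene of progenitors, at 1655 and 2114 CPM, against a gate median of 1.28. They had 0 CPM of Kit. CD34-positive cells 12 and 46 had similar Prss34, 72545 and 64619 CPM, and 0 CPM of Kit. CD34-positive cells 6 and 35, with all 45 mitosis genes found, instead had 2716 and 1001 CPM of Prss34 and 563 and 332 CPM of Kit, the stem cell factor receptor gene. Mpo was at 4153 and 4284 CPM in cells 6 and 35, and at 129 and 318 CPM in cells 12 and 46. By all genes found at equal depth, cells 6 and 35 ranked 1 and 2 of their gate, and cells 12 and 46 ranked 20 and 22. Erythroid genes summed to 310 CPM in cell 6, 253 CPM in cell 4 and 76.9 CPM in cell 12, and to 0 CPM in cells 35 and 46. The mitosis programme was thus present both in cells with high and in cells with low protease transcripts.

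The number of mitosis genes moved with the number of all genes found, with rho of 0.64 in CD34-negative and 0.52 in CD34-positive cells (r 0.66 and 0.44), and with gene reads per ERCC read, with rho of 0.56 and 0.45 (r 0.69 and 0.30). It did not follow the depth, with rho of -0.08 and -0.15 against gene reads (r 0.01 and -0.06). The part of RNA content in the difference between gates was not tested. Against Prss34, rho was 0.60 in CD34-negative and 0.01 in CD34-positive cells (r 0.56 and -0.06). Against Mpo it was 0.41 and 0.21 (r 0.94 and 0.03). All these CD34-negative values include cells 25 and 36, which had the most mitosis genes of their gate and ranked 2 and 1 in it by Mpo. Values without these cells are not given here.

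Outside the cell cycle lists, the genes whose level at equal depth ranked most like the number of mitosis genes over all 92 cells were Gm11223 (rho 0.78), Stmn1 (0.76), Cbx5 (0.76), Ptma (0.75), Mpo (0.75), Nucks1 (0.74), Gm9800 (0.74), Diaph3 (0.73), Dnmt1 (0.72) and Anp32e (0.71), of 12458 genes. Gm11223 and Gm9800 are annotated as processed pseudogenes in GENCODE, and their reads may be shared with a parent gene. Both gates enter these values, so a gene that differs between them ranks high. Within the 46 CD34-positive cells the first 10 were Lmnb1, Trip13, Gm11223, Hist1h2ab, Melk, Hist1h1b, Cdca3, Hist1h2bj, Tubb5 and Tuba1b, with rho from 0.73 to 0.71. Lmnb1 encodes a nuclear lamin, Tubb5 and Tuba1b tubulins, and the Hist1 genes replication-dependent histones. Each member set against the number of the other members in the same cells had rho from 0.24 for Smc4, 0.27 for Pttg1 and 0.37 for Bub3 up to 0.79 for Spc24.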

How the data were processed

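The data were 94 single-cell libraries in 2 sort gates. The authors deposited one table of raw read counts per gene, with ERCC sequences and the htseq-count summary categories. Per the submitters' processing notes, GSNAP, HTSeq 0.5.3p3 and the build mm10 were used. The annotation and strand setting are not given in the sources used here. Per the labels' protocols, cDNA went through 19 PCR cycles and was sequenced from 1 end over 50 bases. Reads carry no molecular identifiers, so intervals cover counting error alone and not the spread between mice.

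Symbols matched 45143 of 46078 identifiers. The cell filter asked for 50000 gene reads, 1000 genes with a read, under 20% mitochondrial and under 50% ERCC reads, and left out 2 cells. Only gene reads entered library sizes. Reads were summed over a gate's cells and scaled to CPM. Intervals are exact Poisson (95%), Clopper-Pearson or order-statistic. A fold's interval sets one gate's upper bound against the other's lower bound. Reads were drawn without replacement to 200000 per cell. All 45 genes had reads in at least 10 kept cells, so all passed the filter on low values. Exon lengths and gene overlaps came from GENCODE M21 on the same build. Cells were sorted singly, and no doublet caller and no clustering were run.

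The genes, the subcomplexes and the other lists were chosen with earlier results of these data known. Full values went to the gene with most reads in each of 11 subcomplexes, the 3 highest and 3 lowest folds, Mki67, Cdk1 and Plk1, and the other members were given by fold. In the other lists the highest and lowest fold were named, and outside all lists the 10 genes ranking most like the members. Kif23, the pairs of genes and the single cells were picked after their values were seen. Alternatives covered scaling (scran 1.30.0, TMM of edgeR 4.0.16, ERCC), pseudocount, depth, seed and cells left out. The computation of folds was tested on simulated data. Computations used Python 3.11.15, numpy 2.4.6, scipy 1.17.1 and R 4.3.3.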

Additional observations from a re-analysis of the deposited data

Results flagged for a closer look

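A cell left out by the filter held mitosis reads. CD34-positive cell 3, with 31504 gene reads, had 77 reads in 20 of the 45 genes. At 24000 gene reads, 20 were found, against 1 to 45 (median 6.5) in kept CD34-positive cells at that depth. CD34-negative cell 20, the other left-out cell, had 24565 gene reads and 0 of the 45 genes, against 0 to 39 (median 2.5) in kept cells of its gate. Its 0 counts show only that none was detected at this depth.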

How the results depend on the processing

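The main values were a median log2 fold of 1.91 for the members and 1.46 for the 95 other mitosis genes. With ERCC scaling they were 2.81 and 2.33, with a pseudocount of 10 CPM 1.38 and 0.87, with each gene's highest cell of a gate left out 2.57 and 1.89, and without CD34-negative cells 25 and 36 4.14 and 2.44. The members' median was 1.33 in cells numbered 7 to 42, a choice of numbers that need not be a batch. Leaving out each cell in turn gave 1.69 (without CD34-positive cell 13) to 2.58 (without CD34-negative cell 25, and 2.58 without cell 36) for the members, 1.35 to 1.80 for the other mitosis genes, and 34 to 41 members at log2 fold 1 or more. ERCC scaling reversed Pttg1, at 0.61. The median difference in the share of cells with a read, over members, was 19.6 points, and 15.2 when a gene needed at least 10 reads. Scran and TMM scaling gave 1.97 and 2.03 for the members and 1.35 and 1.57 for the other mitosis genes, while scran moved the list medians of cohesin to 0.32 and of the anaphase-promoting complex to 0.34. The difference in median members found per cell was 7.5 at 100000 gene reads and with another seed. Of 450 values for single members, 210 kept within their counting interval, 239 moved beyond it and 1 reversed, and of 110 subcomplex medians 71 kept within the range of their genes' folds and 39 moved beyond it. Where no value shows it, the cause was not tested. No paired analysis was possible because no label ties a cell number to a mouse and the results come from no test. With 1 sample per gate, reads without molecular identifiers and 46 cells each, rare cells and low genes limit the precision.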
